A study of Mus musculus with 4 samples.

Results

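The genes described here are 8 members of the CXC chemokine system that are usually counted as homeostatic, together with their receptors: the ligands Cxcl12, Cxcl13, Cxcl14 and Cxcl16 and the receptors Cxcr4, Ackr3 (also written Cxcr7), Cxcr5 and Cxcr6. They were chosen by name, with earlier results of these data known. Every probe set that the platform annotation maps to exactly 1 of them was taken. This gave 14 of the 45037 non-control probe sets on the array and 8 of 18193 genes. RNA was measured on 4 Affymetrix arrays, 2 for a control diet with casein (CAS) and 2 for a diet with soy protein isolate (SPI). All 4 samples were freshly sorted basal cells of the mammary gland, a population enriched for mammary stem cells (MaSC) that per the labels also holds myoepithelial cells and their progenitors. All mice carried the MMTV-Wnt1 transgene (Wnt1-Tg) on the mixed background named B66SJL/HEV/J, so no group lacks the transgene and no wild-type sample enters the comparison. The MMTV promoter drives Wnt1 mainly in mammary epithelium, where the ligand promotes tumours. The age of the animals and the time on each diet are not given in the sources used here, and no label states whether the 2 samples of each diet were from different animals or pools. What the p-values measure is thus the spread among these 4 samples, which may be purely technical. The series title asks about cytokine and chemokine transcripts in these cells under a diet that protects against tumours.

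Homeostatic chemokines guide cells through tissues in the resting state, in contrast to the chemokines that are switched on by inflammation. Cxcl12, made by stromal cells in many tissues, signals through Cxcr4 and Gi proteins, while Ackr3 binds the same ligand and takes it up with little or no G protein signalling. Cxcl13 draws B cells that carry Cxcr5 into lymphoid follicles, Cxcl14 is made by many epithelia, and Cxcl16 is a membrane-bound ligand that Adam10 and Adam17 can shed and that is read by Cxcr6.

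The 250 bases before the annotated start of transcription are shown for Cxcr4 and Cxcl13, the members whose transcripts passed the test, in opposite directions, and for Cxcl12, the ligand of Cxcr4. They come from RefSeq (build GRCm38.p6), where 6 of the 8 members were matched by symbol and Cxcr5 and Cxcl16 were not. They are written 5′ to 3′ on the strand of the gene, and the capitals mark TATAAA, the letters of the classical element just before many start sites, and GGGCGG, the box read by Sp1-type factors, searched on both strands with overlapping matches counted.
Cxcr4, chr1:128592300-128592549, minus strand: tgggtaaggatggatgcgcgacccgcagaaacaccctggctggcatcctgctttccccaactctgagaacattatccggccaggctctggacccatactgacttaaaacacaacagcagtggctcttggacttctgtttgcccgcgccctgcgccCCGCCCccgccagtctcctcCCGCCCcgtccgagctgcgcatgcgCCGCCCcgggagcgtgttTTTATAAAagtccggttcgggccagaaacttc
Cxcl13, chr5:95956689-95956938, plus strand: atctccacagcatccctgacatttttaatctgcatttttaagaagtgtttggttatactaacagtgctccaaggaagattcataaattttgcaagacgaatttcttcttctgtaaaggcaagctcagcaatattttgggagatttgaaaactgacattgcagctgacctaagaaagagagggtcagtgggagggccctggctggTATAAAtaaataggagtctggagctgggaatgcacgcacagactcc
Cxcl12, chr6:117168285-117168534, plus strand: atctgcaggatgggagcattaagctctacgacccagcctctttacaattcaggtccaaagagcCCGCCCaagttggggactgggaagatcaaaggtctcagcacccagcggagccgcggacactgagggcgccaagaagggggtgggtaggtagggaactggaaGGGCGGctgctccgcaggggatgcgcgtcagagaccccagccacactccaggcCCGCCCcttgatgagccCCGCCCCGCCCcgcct
The Cxcr4 window had a GC content of 61.2%, with TATAAA beginning 32 and 30 bases before the start on opposite, overlapping strands and 3 matches to GGGCGG at 95, 75 and 50 bases. The Cxcl13 window had a GC content of 42%, below the median of 52.4% over 32851 RefSeq promoter windows of this length, with TATAAA at 46 bases and no match to GGGCGG. The Cxcl12 window had a GC content of 64.4%, 5 matches to GGGCGG, of which 2 overlap, and none to TATAAA. Of all these windows 12.4% held TATAAA and 32.7% held GGGCGG. The core letters of a hypoxia response element, ACGTG (in 16.6% of all windows), a STAT site, TTCNNNGAA (7.02%), and a kappaB site (7.25%) were searched on both strands as well, and these letters are not in the 3 windows. A match describes the sequence only.

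The deposited values are on a log2 scale and had been centred on the median of the 4 arrays for every probe set, so they hold no levels, and each value below is a distance from that median. All differences are SPI minus CAS on the log2 scale. The members can therefore not be ordered by abundance. A coarse class of the level was recovered from the step size of the digits, and it follows the lowest of the 4 arrays. By this class 6 member probe sets lay at 8 to 16 on the log2 scale before centring, 5 at 4 to 8 and 3 under 4. At level 4 or above were 67.2% of all probe sets, 87.5% of 96 ribosomal protein probe sets and 27.9% of 43 olfactory receptor probe sets, so reaching level 4 does not establish expression.

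Cxcr4 rose and Cxcl13 fell on the SPI diet, and the other 6 genes did not pass the test. Of the 14 probe sets 1 was higher and 2 were lower at an adjusted p under 0.05 (limma with Benjamini-Hochberg adjustment over all 45037 probe sets), and 7 had an unadjusted p under 0.05, where 17.8% of all probe sets had one. Among all probe sets tested 1.50% passed, 0.249% higher and 1.25% lower. As the members were chosen with earlier results known, these counts do not test an excess over such shares. With the arrays centred on the hybridization controls, which had read lower on the SPI arrays, 2 member probe sets were higher (Cxcr4 and 1 of Cxcl12) and 2 lower, beside 1557 higher and 704 lower of all probe sets, where 112 and 564 passed without that centring. The median difference over the 14 was -0.11, beside 0.02 over all probe sets. The diets did not overlap for 12 of the 14, meaning that the SPI pair lay wholly above or wholly below the CAS pair, and this held for 48.4% of all probe sets. With 1 value per gene, the mean of its probe sets, 1 of 8 genes was higher and 1 lower, where 0.901% of all genes were higher and 3.09% lower. The median of the 8 genes was -0.06, beside 0.03 over all genes. An exact permutation test of 2 against 2 arrays cannot go below p = 0.333, so the adjusted p-values rest on limma's pooling of the spread over probe sets.

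**Figure D1:**
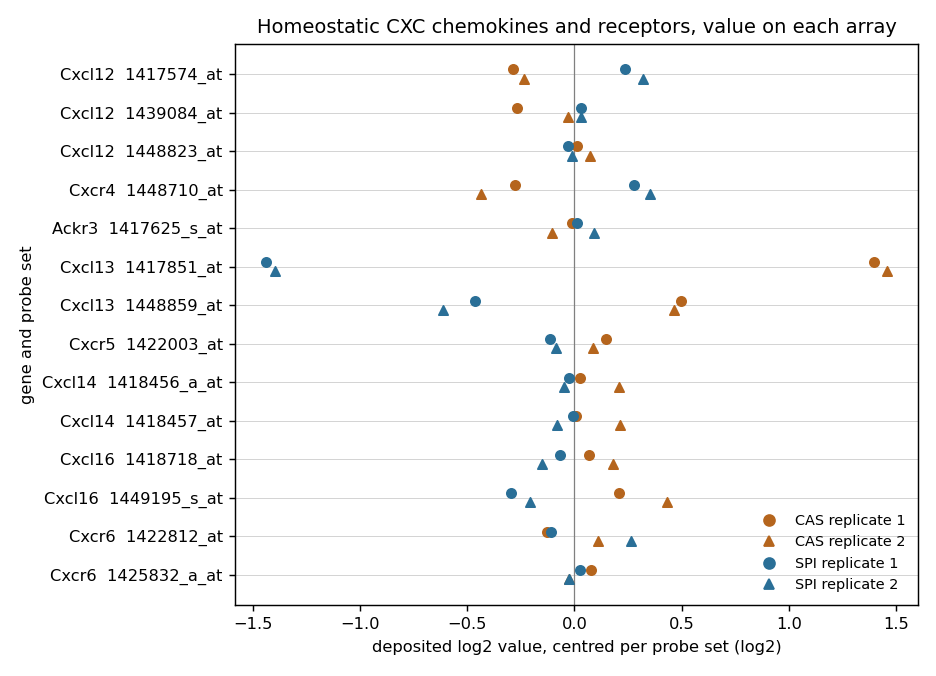
Deposited log2 value (horizontal axis, centred per probe set) of each of the 14 probe sets on the 4 arrays, with CAS and SPI in different colours and replicate numbers as circles and triangles. The Cxcl13 probe sets lie farthest apart between the diets, with CAS at 1.40 and 1.46 and SPI at -1.44 and -1.40 for the wider of them, and Cxcr6 is the gene whose diets overlap.

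Cxcr4, the receptor through which Cxcl12 directs stem cells and leukocytes, was higher in SPI. Its probe set (1448710_at, level class 4 to 8) read -0.28 and -0.44 in CAS and 0.28 and 0.35 in SPI. Both SPI values lay above both CAS values, and the gap between the diets was wider than the gap between arrays of a diet. The means were -0.36 ± 0.11 in CAS and 0.31 ± 0.05 in SPI (SD, n = 2 arrays each, limma adjusted p = 0.0448). The difference of 0.67 (SE 0.09) is a 1.59-fold rise, with a 95% interval of 1.36 to 1.87. With 1 value per gene the limma adjusted p was 0.0170. With any 1 array left out the difference ran from 0.59 to 0.75, and the calls on the probe set and on the gene were lost. Such a fit leaves a lone array for a diet. All probe sets that had passed, members or not, lost their calls in it, so the loss is not particular to Cxcr4.

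The Cxcl12 probe sets disagreed with each other, and the gene as a whole did not pass. Cxcl12 is the main ligand of Cxcr4 and holds stem cells in their niches in several tissues. The probe set 1417574_at (level class 8 to 16) read -0.29 and -0.23 in CAS and 0.23 and 0.32 in SPI. Its difference of 0.54 (SE 0.08, 1.45-fold, 95% interval 1.26 to 1.67) was close to that of Cxcr4 but just missed the threshold (limma adjusted p = 0.0552). The probe set 1439084_at (class 4 to 8) read -0.27 and -0.03 in CAS and 0.03 on both SPI arrays, a difference of 0.18 (limma adjusted p = 0.442). Most of that difference came from CAS replicate 1, and without that array it was 0.06. The third, 1448823_at (class 8 to 16), read 0.01 and 0.07 in CAS and -0.03 and -0.01 in SPI, a difference of -0.06 (limma adjusted p = 0.720). Within each array the first minus the last of these was -0.30 and -0.31 in CAS and 0.26 and 0.33 in SPI. Both are in the upper class and both map to Cxcl12 alone, so the array gives no single answer for this gene. The mean of the 3 probe sets differed by 0.22 (SE 0.07, limma adjusted p = 0.180).

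Ackr3, the scavenging receptor of Cxcl12, did not pass. Its probe set (1417625_s_at, class 8 to 16) read -0.01 and -0.11 in CAS and 0.01 and 0.09 in SPI. The diets did not overlap, but CAS replicate 1 and SPI replicate 1 lay close together. The difference was 0.11, with a 95% interval of -0.10 to 0.32 (limma adjusted p = 0.538). A probe set with this suffix may bind transcripts of related genes.

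Cxcl13, the follicle chemokine of B cells, fell in SPI on both of its probe sets. The probe set 1417851_at read 1.40 and 1.46 in CAS and -1.44 and -1.40 in SPI. The arrays of a diet lay within 0.1 of each other while the diets lay nearly 3 log2 units apart. Its measured signal was 7.18-fold lower in SPI (95% interval 6.29 to 8.21, difference -2.84, SE 0.08, n = 2 arrays per diet, limma adjusted p = 0.00416). Its level class, under 4, is set by its lowest array, here one on the SPI diet. The SPI arrays may thus lie at background, so this is a ratio of signals, which may understate the fold in transcript, and the gene value given below includes it. The probe set 1448859_at (class 4 to 8) read 0.49 and 0.46 in CAS and -0.46 and -0.61 in SPI. It was 2.02-fold lower (1.73 to 2.35, difference -1.01, SE 0.09, limma adjusted p = 0.0173). Both agreed in direction on every array, but the first minus the second was 0.903 and 0.997 in CAS and -0.974 and -0.786 in SPI, so the size of the fall depends on the probe set. With 1 value per gene the difference was -1.93 (3.81-fold lower, 3.41 to 4.26, limma adjusted p = 0.00117), and -1.01 where the gene was read from its probe set in the highest level class (adjusted p = 0.00852). With 1 array left out the difference ran from -2.88 to -2.81 for 1417851_at and from -1.09 to -0.94 for 1448859_at. Both lost their calls in each such fit, as did all other probe sets that had passed. The gene difference then ran from -1.96 to -1.90. The gene kept its call without either SPI array and lost it without either CAS array.

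Cxcr5, the receptor of Cxcl13 on B cells and follicular helper T cells, did not pass. Its probe set (1422003_at, class under 4) read 0.14 and 0.08 in CAS and -0.11 and -0.08 in SPI. Both SPI values lay below both CAS values, by a difference of -0.21 (95% interval -0.40 to -0.02, limma adjusted p = 0.243).

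Cxcl14 did not pass on either probe set, and the probe sets read alike. They read 0.02 and 0.21 (1418456_a_at) and 0.01 and 0.21 (1418457_at) in CAS, and -0.02 and -0.05, and -0.01 and -0.08, in SPI. In both, CAS replicate 2 stood above the other 3 arrays, which lay close together. Both differences were -0.15, with limma adjusted p of 0.456 and 0.488, and both probe sets were in the class 8 to 16. The gene value was -0.15, with a 95% interval of -0.37 to 0.07. Without CAS replicate 2 it was -0.05.

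Cxcl16 lay lower in SPI on both probe sets without passing the test. The probe set 1449195_s_at, whose suffix marks possible binding of related transcripts, read 0.21 and 0.43 in CAS and -0.30 and -0.21 in SPI. Its difference was -0.57 (SE 0.10, 95% interval -0.83 to -0.30, limma adjusted p = 0.0871). The probe set 1418718_at read 0.07 and 0.18 in CAS and -0.07 and -0.15 in SPI, a difference of -0.24 (limma adjusted p = 0.249). In each the diets did not overlap and CAS replicate 2 was the highest array. The gene value was -0.40 (SE 0.08, 95% interval -0.60 to -0.20), with a limma adjusted p of 0.0628.

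Cxcr6, the receptor of Cxcl16 on T and NK cells, was the member whose diets overlapped on the arrays. The probe set 1422812_at (class under 4) read -0.13 and 0.11 in CAS and -0.11 and 0.26 in SPI, with the arrays numbered 1 low in both diets. The probe set 1425832_a_at (class 8 to 16) read 0.08 and -0.03 in CAS and 0.03 and -0.03 in SPI. Their differences were 0.09 and -0.03 (limma adjusted p = 0.825 and 0.911). The gene value of 0.03 had a 95% interval of -0.17 to 0.23.

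**Figure D2:**
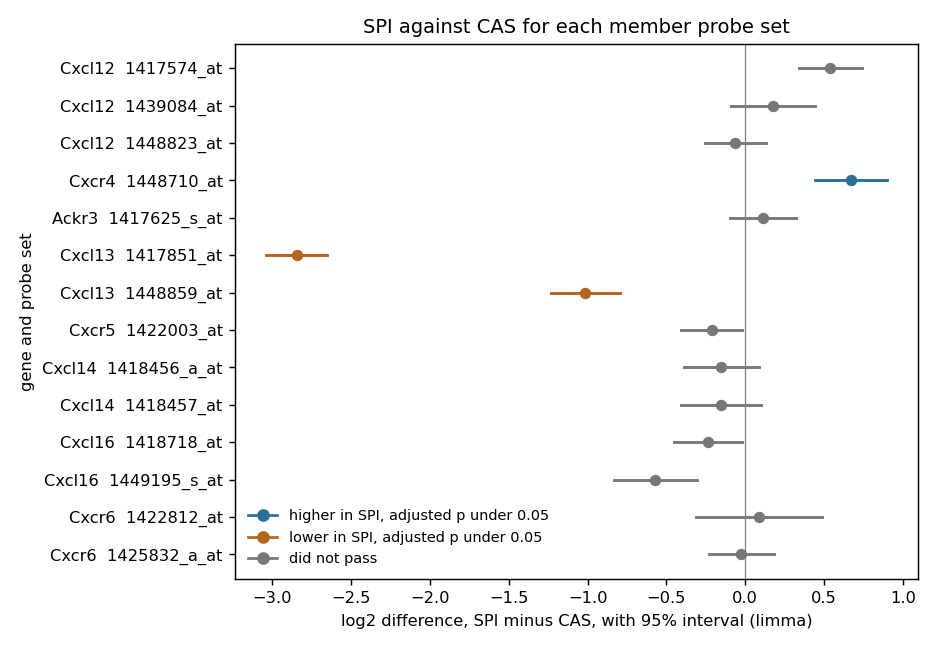
Difference SPI minus CAS on the log2 scale (horizontal axis) for each member probe set, as a point with its 95% limma interval from 2 arrays per diet, coloured by the test. Cxcr4 lies above 0 at 0.67, Cxcl13 lies below it at -2.84 and -1.01, and the Cxcl12 probe sets run from -0.06 to 0.54.

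Set as ligand and receptor, the members did not pass in pairs with the main settings. The receptor passed without its ligand for Cxcl12 and Cxcr4, and the ligand without its receptor for Cxcl13 and Cxcr5. For Cxcr4 and Cxcl12 1417574_at the limma adjusted p lay close to the threshold on either side, at 0.0448 and 0.0552. Both probe sets passed with the arrays centred on the hybridization controls (0.0105 and 0.0140) and among probe sets at level 4 or above (0.0239 and 0.0279). Whether a ligand and its receptor differed in their response was not tested. In sorted bulk RNA, fewer cells of a type and less RNA per cell cannot be told apart, which holds for every value given here.

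Genes that transmit, damp or surround these signals were read from 3 lists, chosen with earlier results known, with 1 value per gene. Of 22 measured genes that carry chemokine signals inside the cell, such as G proteins, kinases and small GTPases, 0 passed in limma, with 6 at an unadjusted p under 0.05, which 20.7% of all genes had, and the median was -0.005. Gnai1, an inhibitory G protein subunit, was at 0.34 (limma adjusted p = 0.0569) and Plcb2, a phospholipase, at 0.31 (0.0682). Gnai2, the inhibitory subunit most used by leukocyte chemokine receptors, was at -0.26 (0.160) and Ptk2b, a focal adhesion kinase relative, at -0.19 (0.183). Read from the probe set in its highest level class alone, Ptk2b was at -0.60 and passed (0.0253), and so did Gnai1, at 0.43 (0.0497). As means of their probe sets, Gnai1 and Gnai2 lay on opposite sides of 0 and neither passed.

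Of 26 measured genes that damp receptors or process and scavenge chemokines 1 rose and 1 fell, with a median of -0.05. An unadjusted p under 0.05 was found for 10 of the 26, beside 20.7% of all genes. Of all genes 0.901% passed as higher and 3.09% as lower. Grk3 is a kinase that phosphorylates active receptors, Cxcr4 among them, and so ends their signal. It read -0.18 and -0.21 in CAS and 0.16 and 0.17 in SPI, a rise of 0.36 (SE 0.06, limma adjusted p = 0.0462). None of its 3 probe sets passed alone (limma adjusted p between 0.0913 and 0.147). The gene's call was lost with any 1 array left out, where its difference ran from 0.34 to 0.38. Such a fit leaves a lone array for a diet, and every call in the 3 lists was lost in it. The Grk3 call was also lost, narrowly, with the arrays centred on their medians (0.0506). Dpp4, a surface protease that inactivates Cxcl12, read 0.27 and 0.17 in CAS and -0.27 on both SPI arrays, a fall of -0.49 (SE 0.07, limma adjusted p = 0.0256). Its 4 probe sets read -0.84, 0.06, -0.12 and -1.06, and only the first passed alone (limma adjusted p = 0.0363). The 1 at 0.06 is the 1 in the highest level class, and it had overlapping diets and a 95% interval of -0.24 to 0.35. Whether Dpp4 fell thus depends on the probe set. With 1 array left out the Dpp4 difference ran from -0.54 to -0.44, and its call was lost. The call was lost as well with the arrays centred on the hybridization controls (0.0571) and among probe sets at level 4 or above (0.0753). Ackr4, another scavenging receptor, was at 0.35 (0.0564) and Sdc1, a heparan sulfate proteoglycan that can hold chemokines, at -0.29 (0.0731), and neither passed.

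Of 16 measured genes of the lymphotoxin pathway and of lymphoid tissue, which act upstream of or beside Cxcl13 in follicles, 1 fell and 0 rose. Their median was -0.12, and 6 of the 16 had an unadjusted p under 0.05, beside 20.7% of all genes. Vcam1, an adhesion molecule of endothelium and of stromal cells, read 0.27 and 0.33 in CAS and -0.28 and -0.30 in SPI, a fall of -0.59 (SE 0.06, limma adjusted p = 0.0136). Its 3 probe sets lay at -0.60, -0.52 and -0.64. With 1 array left out its difference ran from -0.62 to -0.55, and its call was lost with the others of these 3 lists. Ccr7, the receptor of the T cell zone chemokines, was at -0.65 (0.0544), Mfge8, made by follicular dendritic cells and by mammary epithelium, at -0.28 (0.0792) and Relb, a transcription factor of the lymphotoxin pathway, at -0.23 (0.184). The medians of these 3 lists turned positive, to 0.15, 0.11 and 0.03, with the arrays centred on the hybridization controls, where the median of all probe sets was 0.18. With that centring 10 genes of the 3 lists passed as higher and 2 as lower, in place of 1 and 2, and with the arrays centred on their medians 0 and 3.

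**Figure D3:**
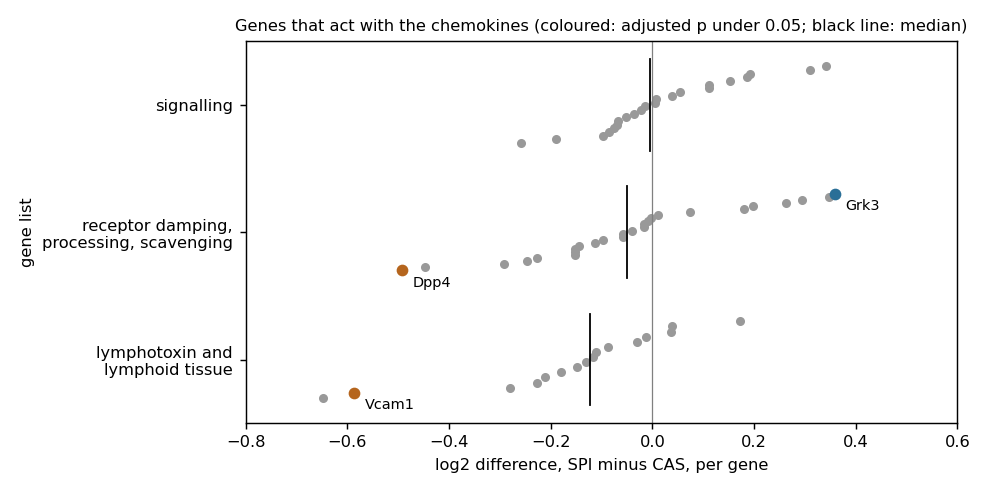
Difference SPI minus CAS on the log2 scale (horizontal axis) of each measured gene in the 3 lists, 1 point per gene, with the list median as a black line. Grk3 at 0.36, Dpp4 at -0.49 and Vcam1 at -0.59 are the coloured points that passed the test, and the medians lie between -0.12 and -0.005.

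Markers of cells that the gate could also hold were read on the same arrays, in lists chosen with earlier results known. All 9 basal markers, Krt5 and Krt14 among them, were in the level class 8 to 16, taking the highest class among a gene's probe sets. So were 7 of 9 luminal and 3 of 5 general leukocyte markers, so this class cannot check the basal label. Krt5 was at -0.04 and Krt14 at 0.15, neither passing. Of the 9 basal markers only Oxtr, the oxytocin receptor, rose (0.49, limma adjusted p = 0.0248). With 1 array left out the Oxtr difference ran from 0.45 to 0.54, and its call was lost. Without either CAS array the calls on all markers were lost. Of 10 fibroblast markers 9 fell, where 3.09% of all genes passed as lower, and the median of the 10 was -1.58. The exception was Dcn, at -0.05 with overlapping diets and a level class under 4. The mean centred value of the 10 was 0.63 and 0.73 in CAS and -0.68 and -0.72 in SPI. Lum, a matrix proteoglycan, was at -2.32, Dpt at -1.75, and the collagens Col3a1, Col1a1 and Col1a2 at -1.71, -1.70 and -0.89, each with a limma adjusted p between 0.00117 and 0.00536. These values stand beside the Cxcl13 gene value of -1.93, and their part in that result was not tested.

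Some other stromal and luminal markers fell as well. Of 6 pericyte markers 4 fell, with Pdgfrb at -1.13, Abcc9 at -1.02 and Rgs5 at -0.997, and list means of 0.45 and 0.33 in CAS and -0.33 and -0.40 in SPI. Of 10 endothelial markers 3 fell, Plvap (-0.86), Tek (-0.86) and Vwf (-0.71), while Cdh5 (-0.42) and Pecam1 (-0.47) did not pass. Cdh5 passed, at -0.94, when read from its probe set at level 4 or above (adjusted p = 0.00335). The endothelial list means were 0.32 and 0.23 in CAS and -0.17 and -0.31 in SPI. Of 9 luminal markers 4 fell, the keratins Krt19 (-0.89), Krt18 (-0.73) and Krt8 (-0.36) and the oestrogen receptor gene Esr1 (-0.39), while the progesterone receptor gene Pgr lay on the other side at 0.27 (adjusted p = 0.101). With the arrays centred on the hybridization controls Esr1 (0.116) and Krt8 (0.146) lost their calls. The luminal list means were 0.21 and 0.16 in CAS and -0.16 and -0.28 in SPI. Over all marker lists 21 genes passed, 1 higher and 20 lower (8 and 21 after centring on hybridization controls), and the count was 0 without CAS replicate 1, 0 without CAS replicate 2, 10 without SPI replicate 1 and 6 without SPI replicate 2.

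No immune marker passed the test with the main settings. Of 6 B cell markers 0 passed in limma (1 at an unadjusted p under 0.05), with Ms4a1, which codes for CD20, at -0.19. The median of -0.11 turned to 0.04 with the arrays centred on the hybridization controls and to 0.07 among probe sets at level 4 or above, and it was -0.02 without CAS replicate 1, -0.18 without CAS replicate 2 and -0.07 without SPI replicate 1. The list means were 0.11 and -0.005 in CAS and -0.04 and -0.02 in SPI, and 3 of the 6 were at level 4 or above. Beside the fall of Cxcl13 and the value of Cxcr5, the part of B cells was not tested. Of 10 macrophage markers 0 passed, with a median of 0.25, and Adgre1 and Csf1r at 0.34 and 0.14. An unadjusted p under 0.05 was found for 6 of the 10, beside 20.7% of all genes. The macrophage median was 0.40 with the arrays centred on the hybridization controls. The list did not move as one, since 7 of the 10 lay above 0, up to 0.51, and 3 below. Those below were Cd14 (-0.32, also under 0.05 unadjusted), Mrc1 (-0.23, with overlapping diets and a level class under 4) and Itgam (-0.16). The list means were -0.17 and -0.04 in CAS and 0.02 and 0.10 in SPI. Of 5 general leukocyte markers 0 passed (0 at an unadjusted p under 0.05), with a median of 0.13, Ptprc at 0.18 and Cd52 at 0.13, and means of -0.09 and -0.01 in CAS and 0.005 and 0.05 in SPI. Of 8 T and NK cell markers 0 passed (0 at an unadjusted p under 0.05), with Cd3e at 0.05 and Cd3d at -0.06. The part of leukocytes in the rise of Cxcr4 was not tested.

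**Figure D4:**
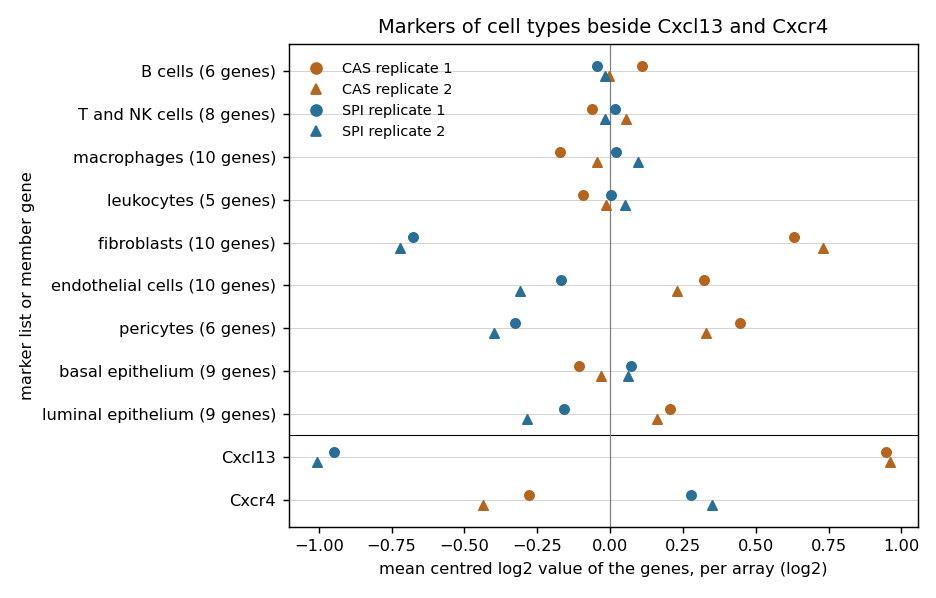
Mean centred log2 value (horizontal axis) of each marker list on each of the 4 arrays, above the gene values of Cxcl13 and Cxcr4 on the same arrays. The fibroblast means, 0.63 and 0.73 in CAS against -0.68 and -0.72 in SPI, lie on the same side as Cxcl13 on every array. So do the pericyte, endothelial and luminal means. The macrophage, leukocyte and basal means lie on the same side as Cxcr4 on every array, all within 0.2 of 0.

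The probe sets whose 4 centred values lay nearest to those of the members that passed were found by Euclidean distance over the 4 arrays. Nearest to Cxcr4 were Tacc3, which organises the mitotic spindle (distance 0.0319), Fam13c (0.0345) and Cfap54, a gene of motile cilia (0.0350), with differences of 0.67, 0.65 and 0.70. Nearest to the 1417851_at probe set of Cxcl13 were the whey protein gene Wap (0.398), the matrix proteoglycan Fmod (0.496) and the serine protease Tmprss11e (0.527), with differences of -2.95, -2.36 and -2.38. With 4 arrays in 2 groups and 45037 probe sets, near neighbours of this kind share the array and the diets, and nothing more is read from them.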

How the data were processed

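RNA from 4 sorted samples was read on Affymetrix arrays. The deposited log2 values were made with RMA and GCOS, per the submitters' processing notes (no version is given), and the base of the logarithm is taken from RMA. Each probe set had a median of 0 over the arrays (within 5e-07), which shows a centring by probe set that the labels leave unmentioned. This removes levels and leaves differences between arrays, and the number of arrays limits the precision. Of 45101 probe sets 64 were controls. Of the other 45037, 34945 had 1 gene, 932 several and 9160 none in the platform annotation. Of those with 1 gene, 34741 had a current symbol by gene ID, which was used whether or not it differed. The level class came from the digits left by the values before centring, where larger numbers were stored in coarser steps, and a low probe set can reach a higher class by chance.

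Each probe set, and each of 18193 genes (mean of its single-gene probe sets), was fitted by lmFit and eBayes of limma 3.58.1 under R 4.3.3 (SPI minus CAS, two-sided, no block, no trend, 2 residual and 3.11 or 3.43 prior degrees of freedom), with Benjamini-Hochberg adjustment and a threshold of 0.05. The fit was tested on simulated data. Median array values were -0.0096 and -0.0058 in CAS and 0.0092 and 0.0056 in SPI, and 18 hybridization control probe sets, added transcripts, differed by -0.155. Named genes were all member probe sets, the 4 genes of each pathway list with the smallest p and any past the threshold, up to 3 markers per list past it with the first 2 listed, and the 3 nearest genes to each member that passed. Cd14, Mrc1, Itgam, Pgr and Dcn were named after their values were seen. Members and lists were chosen with earlier results of these data known. Alternatives were a block, each array left out, other centrings, an ordinary t statistic, a filter at level 4, a variance trend over the level class, other thresholds and other probe set choices. For the pathway and marker genes, all but the block, the left-out arrays and the hybridization controls were chosen after seeing the data.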

Additional observations from a re-analysis of the deposited data

How the results depend on the processing

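In the fits below, 3 member probe sets, 2 member genes, 3 pathway genes and 21 marker genes passed with all 4 arrays and the main settings. With the replicate block 1 member probe set (Cxcl13 1417851_at, limma adjusted p = 0.0454) and 1 pathway gene (Vcam1, 0.0403) passed. Over all probe sets 79 passed with this block, against 676 without it, so lost calls were not particular to the members. Cxcr4 1448710_at and Cxcl13 1448859_at missed the threshold (0.162 and 0.0749), as did Grk3 (0.115), Dpp4 (0.0626), Oxtr (0.0679), Esr1 (0.0972) and Krt8 (0.113), while both member genes and the marker count stayed within 1.5 times. The replicate numbers were not shown to pair the arrays (correlation of the gaps between replicates -0.0989). Leaving out 1 array left a lone array for a diet, assumed to vary like the others, and gave 0 member probe sets (5 to 6 at an unadjusted p under 0.05), 0 to 1 member genes, 0 pathway genes (12 to 14 unadjusted) and 0 to 10 marker genes. An ordinary t statistic gave 0 of each (6 member probe sets, 4 member genes, 16 pathway and 25 marker genes unadjusted), with 1 call over the whole table against 676. All probe sets that had passed, members or not, lost their calls in each fit with 1 array left out. Thresholds of 0.01 and 0.1 gave 1 and 5 member probe sets. The pathway count was 12 with the arrays centred on the hybridization controls, 7 with the filter at level 4 and 9 with the variance trend, and the whole table gave 2261, 1175 and 1269 calls.

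Differences that changed sign had not passed, Dpp4 excepted (0.055 from its highest level class). Centred on the hybridization controls, Cxcl12 1448823_at was at 0.093, the Cxcl14 probe sets at 0.0025 and 0.0033 and the gene at 0.0029, Cxcr6 1425832_a_at at 0.13, Krt5 at 0.11 and Cd3d at 0.096. With 1 array left out Cxcr6 1422812_at ran from -0.099 to 0.27, Cxcr6 1425832_a_at from -0.079 to 0.027, the Cxcr6 gene from -0.049 to 0.11, Krt5 from -0.15 to 0.069, Ptprc from -0.029 to 0.40, Cd3d from -0.16 to 0.039 and Cd3e from -0.028 to 0.13. The Cxcr6 gene was at -0.026 at level 4 or above, and from its highest level class. The Cxcl12 probe set 1417574_at passed under 4 settings: single-gene probe sets only (0.0422), the filter (0.0279), the trend (0.0169) and the hybridization controls (0.0140). The gene value of Cxcl12 passed with the last of these (0.0362), and that of Cxcl16 with the filter (0.0443) and the trend (0.0411). The causes were not tested. Ackr3, Cxcr5, Cxcl14 and Cxcr6 passed under none of the settings run.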
